A study of Mus musculus with 4 samples.

Results

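The genes described here encode subunits of the transcription factor NF-kB (Nfkb1, Nfkb2, Rela, Relb and Rel), its inhibitors (Nfkbia and Nfkbie) and proteins that feed back on its activation (Tnfaip3, Traf1 and Birc3). They were chosen by name as 10 genes of a pathway that berberine is reported to dampen, and all probe sets annotated to them were read. The annotation of the array used here gave 18 probe sets for 9 of them, of 18193 genes in all, and Nfkb1 was not analysed here. Total RNA of MC/9 cells, a mouse mast cell line, was measured on Affymetrix Mouse Genome 430 2.0 arrays, which read a transcript by probe sets of short oligonucleotides. The labels trace the line to liver of (B6 X A/J)F1 mice with an age of 13 days. One group was left untreated (control). The second received 10 microM of the plant alkaloid berberine (BER), the third 500 microg/ml of anti-DNP IgE, which binds the hapten dinitrophenyl (DNP), and the fourth both agents (BER+DNP). Treatment lasted 24 h and was followed by 6 h of culture in the 3 treated groups, while the labels give no times for the control. All cells grew in medium with 2-mercaptoethanol, fetal bovine serum and the rat T cell supplement T-STIM, and the labels name no antigen step after the antibody. With 1 array in each group there is no replicate error and no test, and the number of arrays limits the precision.

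NF-kB is a dimer of Rel family proteins that is held in the cytoplasm by IkB proteins. Receptor signals activate the IkB kinase complex, IkB is phosphorylated and degraded, and the freed dimer enters the nucleus and binds kappaB sites. Several of its own subunit and inhibitor genes are among its targets, so their transcripts are widely used as a reading of recent NF-kB activity. In mast cells the pathway is known for driving cytokine genes after the IgE receptor is crosslinked.

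Promoter sequences were taken from RefSeq (mouse build GRCm38.p6), in which 8 of the 10 genes had at least 1 start site. They are shown because NF-kB is known to act on several of these genes through kappaB sites near their start. The window was the 250 bases before each start. The motif searched was the kappaB consensus, 10 bases long, on both strands, and matches could overlap each other. At least 1 match was found for 5 of the 8 genes (Nfkb2, Rel, Nfkbia, Nfkbie and Tnfaip3) and none for Rela, Traf1 and Birc3, while 4.46% of 27025 genes with a window held one. Capitals mark the bases covered by a match, and each stretch is written 5′ to 3′ on the strand of the gene.
Nfkbia, chr12:55492648-55492727, minus strand: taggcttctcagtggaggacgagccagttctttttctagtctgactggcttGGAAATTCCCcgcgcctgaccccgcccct
Tnfaip3, chr10:19015411-19015540, minus strand: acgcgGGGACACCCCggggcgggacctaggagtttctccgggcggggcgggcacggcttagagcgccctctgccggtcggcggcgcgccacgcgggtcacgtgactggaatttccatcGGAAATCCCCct
Nfkb2, chr19:46304657-46304736, plus strand: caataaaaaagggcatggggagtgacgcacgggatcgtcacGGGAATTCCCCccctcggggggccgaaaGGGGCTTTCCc
Rel, chr11:23771020-23771099, minus strand: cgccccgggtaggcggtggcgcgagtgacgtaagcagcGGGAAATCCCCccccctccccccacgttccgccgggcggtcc
Nfkbie, chr17:45555570-45555649, plus strand: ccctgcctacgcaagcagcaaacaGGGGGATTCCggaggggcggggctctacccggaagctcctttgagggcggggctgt
For genes with several start sites (3 for Nfkb2 and 2 for Tnfaip3) the first with a match in the order of coordinates is shown; the other Nfkb2 windows also held a match and the other Tnfaip3 window did not. The match of Nfkbia covered bases -29 to -20 before the start, those of Tnfaip3 bases -125 to -116 and -12 to -3. These are matches of letters and were not tested for binding in these cells.

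The 4 arrays correlated at 0.988 to 0.991 over 45037 probe sets and had medians of 3.13 to 3.15 on the log2 scale. Mast cell markers were mostly dim: 6 of 14 had a mean log2 signal at or above the median of all probe sets, 3.138, which served as the filter on dim genes. Kit lay between 2.60 and 3.01 and Fcer1a, the IgE-binding chain of the receptor, between 2.31 and 2.58, both below that filter on every array. The 6 that passed were Gata2 (mean 5.87), Hdc (5.50), Tpsb2 (4.08), Mcpt4 (3.85), Fcer1g (3.56) and Cma1 (3.31). The summed linear signal of the 14 markers was 190 (control), 190 (BER), 216 (DNP) and 218 (BER+DNP). Of the leukocyte markers, 7 of 10 passed the filter, with sums of 224, 225, 211 and 196 in the same order. Sums of linear signal weigh the brightest genes most. Laptm5 was the brightest leukocyte marker (mean 6.69), while Ptprc (2.29), Cd53 (2.19) and Coro1a (2.95) were below the filter. Epithelial markers summed to 1470, 1490, 1615 and 1576, with 8 of 10 past the filter. Krt17 (mean 9.60) and Krt14 (8.61) were the brightest of them. Macrophage markers summed to 104, 116, 119 and 118, with 5 of 8 past the filter. Fibroblast markers summed to 111, 112, 111 and 114, with 6 of the 9 read. Poly-A control transcripts differed by a median of -0.48 for BER versus control and -0.14 for BER+DNP versus DNP. The 5′ probe set of beta-actin differed by -0.57 and -0.59 in those comparisons and that of Gapdh by 0.05 and -0.08. In RNA of a whole culture, fewer cells of a type and less RNA per cell cannot be told apart. The part of these values in the results below was not tested.

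All differences of the NF-kB genes between the 4 arrays were below 1.5-fold. The spread of Tnfaip3, Relb, Traf1 and Nfkbia over the arrays was nevertheless wider than that of most genes past the filter. A gene was read by its brightest probe set, and 7 of the 9 genes passed the filter: Nfkb2, Rela, Relb, Nfkbia, Tnfaip3, Traf1 and Birc3. None of the 7 lay 1.5-fold apart, a log2 difference of 0.585, in any comparison. The count was 0 of 7 in BER versus control, where 1.99% of 12585 genes passed that fold. It was 0 in BER+DNP versus DNP (1.21% of genes), 0 in DNP versus control (1.43%), 0 in BER+DNP versus BER (0.914%) and 0 in BER+DNP versus control (1.78%). With shares this small, 7 genes would seldom hold a called one, so a count of 0 says little about the NF-kB genes. It also held for the difference of the BER differences, the difference with the antibody minus the difference without it, with 0 of 7 and 4.27% of genes. Of the 18 probe sets, 12 passed the filter and 0 of the 18 reached 1.5-fold in any of these comparisons of 2 arrays. The widest difference among the 12 was 0.53, of Tnfaip3.

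**Figure D1:**
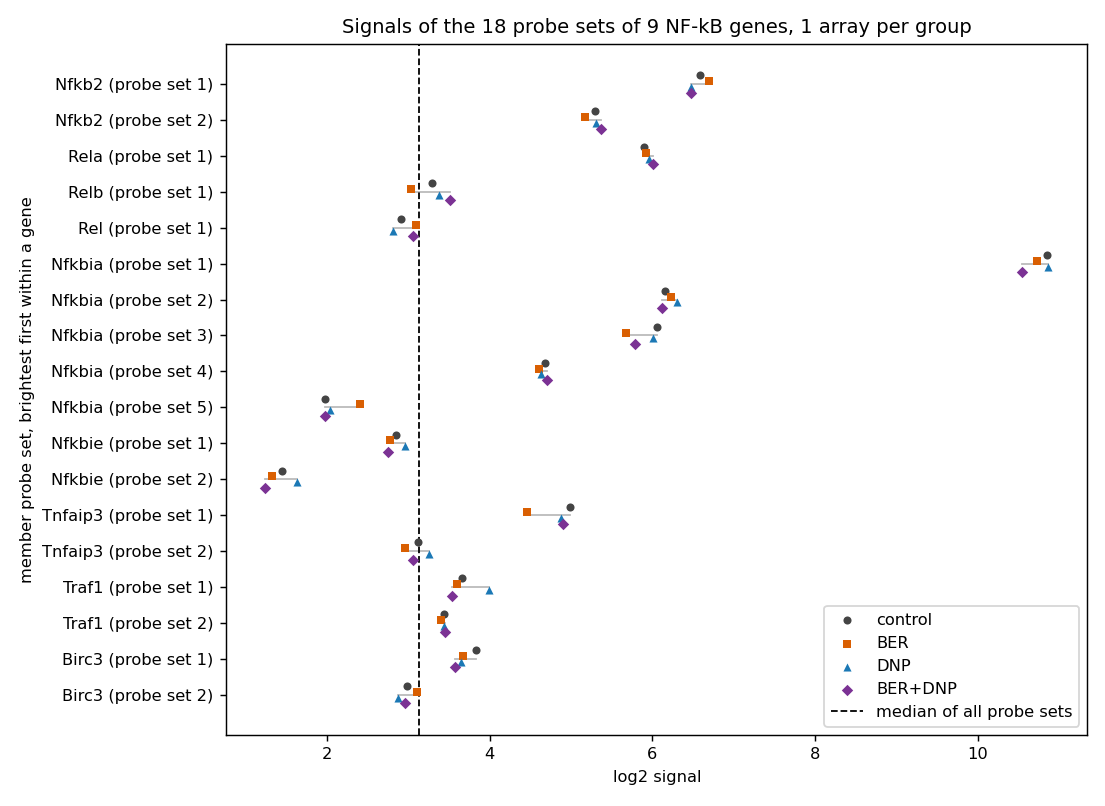
Log2 signal (x axis) of the 18 probe sets of 9 NF-kB genes (y axis, brightest first within a gene), with 1 point for each of the 4 arrays, offset vertically, and a line from the lowest to the highest. The dashed line is the median of all probe sets, 3.138; most probe sets hold their 4 points within 0.5 log2, and BER stands lowest for the first Tnfaip3 probe set, at 4.45.

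Among the subunits, Rela encodes p65, the main activating subunit of the classical pathway. Its single probe set (1419536_a_at) gave log2 signals of 5.90 (control), 5.92 (BER), 5.96 (DNP) and 6.00 (BER+DNP). Its spread over the arrays, 0.10, was the narrowest of the 7 genes, and 93.8% of all genes past the filter had one at least as wide. Rela was 0.03 higher in BER than in control and 0.04 higher in BER+DNP than in DNP, where 89.8% and 83.3% of genes lay at least as far apart. The activating subunit thus read almost the same with and without each agent.

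Nfkb2 encodes p100, the precursor of p52 and an inhibitor in its uncut form. Its brightest probe set (1429128_x_at) gave 6.59 (control), 6.69 (BER), 6.47 (DNP) and 6.47 (BER+DNP), so both DNP arrays read below both arrays without the antibody. The other probe set (1425902_a_at) gave 5.30, 5.18, 5.31 and 5.37 in the same order, with both DNP arrays on the higher side. The probe sets of Nfkb2 therefore disagreed: BER+DNP differed from BER by -0.22 in the first and by 0.19 in the second. The suffix x marks a probe set that can cross-hybridise with other transcripts.

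Relb, whose protein pairs with p52 in the alternative pathway, gave 3.30 (control), 3.04 (BER), 3.38 (DNP) and 3.51 (BER+DNP) on its single probe set (1417856_at). BER was the lowest array, and below the filter, and the 2 DNP arrays were the highest. The difference was -0.26 in BER versus control and 0.13 in BER+DNP versus DNP, and it was 0.47 in BER+DNP versus BER, where 2.66% of genes lay at least as far apart. With 32 added to the linear signals, which shrinks differences of dim probe sets, that difference was 0.11. The gene for c-Rel, Rel, which is typical of blood cells, stayed below the filter on every array (1420710_at), with 2.91 (control), 3.09 (BER), 2.81 (DNP) and 3.06 (BER+DNP). Both BER arrays read above both others, by 0.18 without and 0.25 with the antibody, in a range where the array measures weakly.

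Nfkbia encodes IkB-alpha, the inhibitor that NF-kB resynthesises to end its own activation. Its brightest probe set (1438157_s_at) gave 10.85 (control), 10.73 (BER), 10.86 (DNP) and 10.54 (BER+DNP). Both BER arrays read below both arrays without berberine, by 0.12 without and 0.33 with the antibody; the latter is a 1.26-fold lower signal, and 11.7% of genes lay at least as far apart. In BER+DNP versus control the difference was -0.31. A second probe set (1448306_at) gave 6.06, 5.68, 6.00 and 5.79 in the order control, BER, DNP and BER+DNP, again lower on both BER arrays, by 0.38 and 0.22.

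The other probe sets of Nfkbia did not repeat this order. One (1420088_at) gave 6.15, 6.23, 6.30 and 6.12, with differences of 0.07 in BER versus control and -0.19 in BER+DNP versus DNP. Another (1420089_at) gave 4.68, 4.60, 4.63 and 4.70, with differences of -0.07 and 0.07. The fifth (1449731_s_at) was dim, between 1.98 and 2.40, and read highest in BER. Of the 4 Nfkbia probe sets past the filter, 2 were thus lower on both BER arrays and 2 were not. Nfkbie encodes IkB-epsilon and was below the filter in both of its probe sets, with 2.85, 2.78, 2.97 and 2.76 in the brighter one (1431843_a_at) in the same order. Its BER arrays read below its other arrays in both, by 0.07 and 0.21 in the brighter and by 0.12 and 0.39 in the dimmer probe set (1458299_s_at).

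Tnfaip3 encodes A20, a ubiquitin-editing enzyme that shuts off signalling upstream of the IkB kinase. Its brightest probe set (1450829_at) gave 4.98 (control), 4.45 (BER), 4.88 (DNP) and 4.90 (BER+DNP). BER was the only low array, and the other 3 lay within 0.10 of each other. BER differed from control by -0.53, a 1.44-fold lower signal, where 2.96% of genes lay at least as far apart, and BER+DNP differed from DNP by 0.02. BER+DNP read 0.45 above BER. With 32 added to the linear signals the difference of BER from control was -0.24. The difference of the BER differences was 0.55, with 5.59% of genes at least as far from 0. It was not tested, since it rests on 4 single arrays. Poly-A controls had the same direction, with a median difference of -0.48 in BER versus control. Hybridisation controls had a median of 0.03 there and all genes past the filter one of 0.00. The part of the controls in the Tnfaip3 difference was not tested. The second Tnfaip3 probe set (1433699_at), with a mean of 3.10 just below the filter, gave 3.12, 2.96, 3.26 and 3.06 in the same order. There berberine differed by -0.16 and -0.20, similar without and with the antibody.

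Traf1 encodes an adaptor of TNF receptors that NF-kB induces. Its brightest probe set (1423602_at) gave 3.66 (control), 3.60 (BER), 4.00 (DNP) and 3.53 (BER+DNP). DNP was the only high array. It read 0.33 above control, and BER+DNP read 0.46 below it, a 1.38-fold lower signal, where 3.55% of genes lay at least as far apart. The other probe set (1445452_at) gave 3.44, 3.41, 3.45 and 3.45, within 0.04 of each other, and showed neither difference. With 32 added to the linear signals, the brightest probe set differed by 0.10 in DNP versus control and by -0.14 in BER+DNP versus DNP. Birc3 encodes cIAP2, a ubiquitin ligase of the TNF receptor complex. Its brightest probe set (1421392_a_at) gave 3.84 (control), 3.67 (BER), 3.65 (DNP) and 3.58 (BER+DNP), with control the highest array and BER, DNP and BER+DNP below it by 0.17, 0.18 and 0.26. The dimmer Birc3 probe set (1425223_at), below the filter, lay between 2.88 and 3.11 and read highest in BER.

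**Figure D2:**
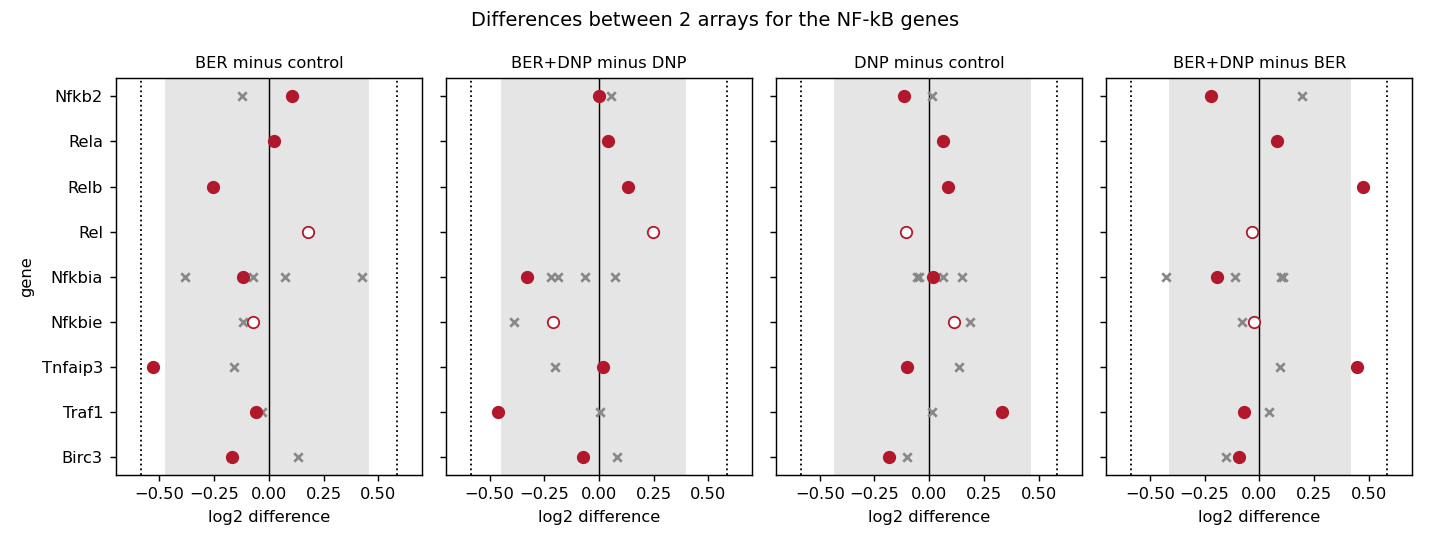
Log2 differences (x axis) of the NF-kB genes (y axis) in 4 comparisons of 2 arrays. Filled points are brightest probe sets past the filter, open points those below it and crosses the other probe sets. Grey marks the middle 95% of all genes past the filter and dotted lines 1.5-fold; among the filled points, Tnfaip3 (-0.53, BER versus control), Traf1 (-0.46, BER+DNP versus DNP), Relb (0.47) and Tnfaip3 (0.45, both BER+DNP versus BER) lie outside the grey band.

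At a lower threshold of 1.2-fold, chosen after the values were seen, 1 of 7 genes was lower in BER than in control (Tnfaip3; 11.9% of all genes were lower). In BER+DNP versus DNP 2 were lower, Nfkbia and Traf1 (11.5% of genes). In DNP versus control 1 was higher, Traf1 (12.1%), and in BER+DNP versus BER 2 were higher, Relb and Tnfaip3 (9.45%). In BER+DNP versus control 1 was lower, Nfkbia (11.7%). In the difference of the BER differences 2 were above this threshold, Relb and Tnfaip3 (14.0%), and 1 below it, Traf1 (16.7%). The gene that passed with berberine alone was not among the 2 that passed with berberine beside the antibody. With shares this small, 7 genes would seldom hold one that passes in both, so this says little. Another Nfkbia probe set past the filter (1448306_at) was also past this threshold with berberine alone, at -0.38. The comparisons share arrays: a low BER array enters both BER versus control and BER+DNP versus BER, and a high DNP array both DNP versus control and BER+DNP versus DNP.

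The medians of the 7 genes stayed near those of all genes. The median was -0.12 in BER versus control, with 5 of 7 below 0, where all genes had 0.00. In BER+DNP versus DNP it was 0.00, with 3 above and 3 below 0 and Nfkb2 identical on both arrays, beside -0.02 for all genes. In DNP versus control it was 0.02 (all genes 0.02), with 4 above and 3 below 0, and in BER+DNP versus BER -0.07 (all genes 0.00), with 3 above and 4 below. The sign of these last medians turned under other settings: the first was -0.05 after quantile normalization, and the second was 0.08 with each gene read by the median of its probe sets. In BER+DNP versus control the median was -0.12, with 5 of 7 below 0, beside 0.00 for all genes. Over both BER comparisons 1 gene was above 0 both times (Rela; 25.4% of all genes) and 3 were below 0 both times (Nfkbia, Traf1 and Birc3; 29.7% of all genes).

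Both BER arrays read below both other arrays in 2 of the 7 genes, Nfkbia and Traf1, beside 19.7% of all genes, and above them in 0 of 7, beside 16.1%. Both DNP arrays read above both others in 2 of 7, Rela and Relb, beside 18.1%, and below them in 2 of 7, Nfkb2 and Birc3, beside 16.4%. These counts are near what the shares of all genes give for 7 genes. On the DNP arrays Relb read higher, and Rela by only 0.06 without and 0.08 with berberine. The summed signal of mast cell markers was also higher there (216 and 218 against 190 and 190). So were the sums of epithelial (1615 and 1576 against 1470 and 1490) and macrophage markers (119 and 118 against 104 and 116). The sum of leukocyte markers was lower there (211 and 196 against 224 and 225). The part of these sums was not tested.

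The spread of each gene over the 4 arrays, its highest minus its lowest log2 signal, was 0.53 for Tnfaip3, 0.47 for Relb, 0.46 for Traf1, 0.33 for Nfkbia, 0.26 for Birc3, 0.22 for Nfkb2 and 0.10 for Rela. All genes past the filter had a median of 0.29, and 25% had more than 0.41. Tnfaip3, Relb and Traf1 thus lay above that value and Birc3, Nfkb2 and Rela below the median. For Tnfaip3, 9.98% of genes had a spread at least as wide. The 3 genes whose pattern over the 4 arrays lay nearest to that of Tnfaip3 were Pcbp1, Ms4a1 and Serinc1, at Euclidean distances of 0.02, 0.05 and 0.05 between log2 values centred on each gene's mean. Of the other NF-kB genes Relb was the nearest, at 0.24 and rank 542 of all genes, and Nfkb2 the farthest, at 0.56 and rank 9636. Over 4 arrays many genes resemble each other, so these ranks only describe the pattern.

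**Figure D3:**
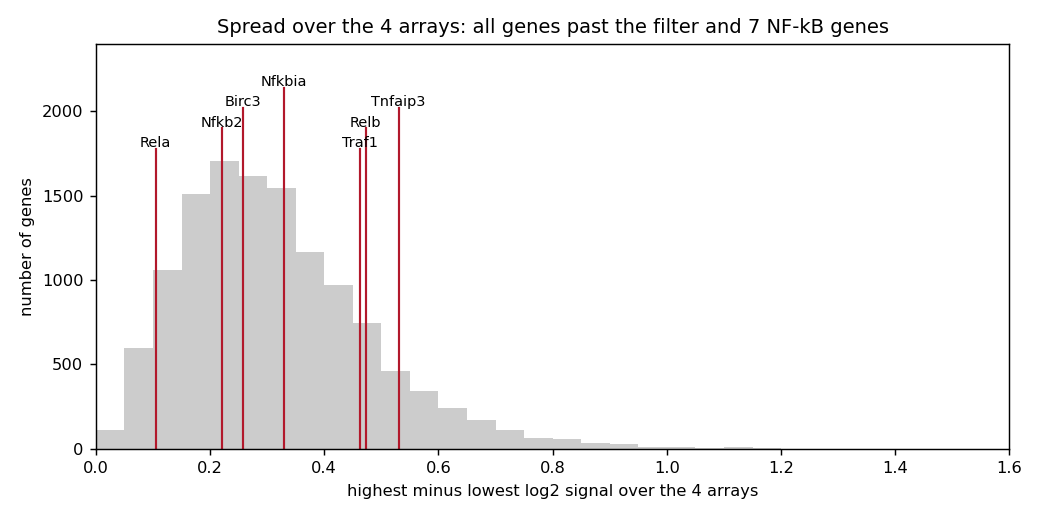
Number of genes past the filter (y axis, grey bars of width 0.05) by the highest minus the lowest log2 signal over the 4 arrays (x axis). Red lines mark the 7 NF-kB genes, from Rela at 0.10 to Tnfaip3 at 0.53, inside the range that most genes span.

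Other genes of the pathway were taken from lists by role, and 71 of the 97 listed genes passed the filter. In DNP versus control 1 of the 71 was 1.5-fold higher and 0 were lower, and in each of the other 4 comparisons of 2 arrays 0 were that far apart. Of all genes, 1.43% were that far apart in DNP versus control and 0.914% to 1.99% in the others. The count of 1 is thus near what the share of all genes gives for 71 genes. The one gene was Tnfrsf1b, which encodes TNF receptor 2, with log2 signals of 4.31 (control), 4.18 (BER), 4.96 (DNP) and 4.68 (BER+DNP). Both DNP arrays read above both others, by 0.65 without and 0.50 with berberine. A second Tnfrsf1b probe set gave 4.28, 4.44, 4.31 and 4.27 in the same order and did not repeat this. Of the 18 pathway genes named below and here, 10 had another probe set past the filter. In the comparison where the brightest probe set differed most, all those others had the same sign for 4 of the 10 genes and at least 1 had the opposite sign for 6. The same sign did not mean a like size: the other probe set differed by 0.03 for Tnfrsf1b, -0.03 for Lif and 0.06 for Irak1. For Cd40, the last of the 4, the others differed by -0.26 and -0.19.

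Of the 10 receptor genes 9 passed the filter, with medians of 0.21 in BER versus control, -0.05 in BER+DNP versus DNP, 0.13 in DNP versus control and -0.21 in BER+DNP versus BER. Cd40, a costimulatory receptor, read 0.44 lower in BER+DNP than in DNP and 0.48 lower than in BER. Its other 2 probe sets past the filter lay above DNP there, by 0.06 and 0.44, and below BER, by 0.19 and 0.26. Tlr2, a sensor of bacterial lipoproteins, differed by 0.48 in BER versus control and by 0.12 in BER+DNP versus DNP. Adaptor and ubiquitin ligase genes, of which 11 of 20 passed, had medians between -0.04 and 0.03 in these 4 comparisons. Btrc, whose product marks phosphorylated IkB for degradation, differed by 0.40 and -0.02 with berberine, while another of its probe sets past the filter differed by -0.39 in BER versus control. The adaptor gene Tab2 differed by 0.34 in DNP versus control and Ube2n, which encodes the conjugating enzyme for K63-linked ubiquitin chains, by 0.26. The second Ube2n probe set differed by 0.44 in BER+DNP versus DNP, where the brightest differed by -0.28.

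Of 11 listed kinase genes 7 passed, with medians of 0.00 and 0.05 in the 2 BER comparisons and 0.16 and -0.08 in the 2 DNP comparisons. Ikbkg, the regulatory subunit of the IkB kinase, differed by 0.40 in BER versus control and by 0.05 in BER+DNP versus DNP, but its 3 other probe sets past the filter lay between -0.12 and -0.03 in the former. Irak1, a kinase of interleukin-1 and Toll-like receptors, differed by 0.00 and 0.47 there, and its other probe set past the filter by 0.22 and 0.06. Map3k7, which encodes the IkB kinase activator TAK1, read 0.49 lower in DNP than in control and 0.31 lower in BER+DNP than in BER. Its other 2 probe sets past the filter differed by -0.16 and 0.57 in DNP versus control, so the lower signal of Map3k7 with the antibody was not shared by all of them.

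The other 4 IkB-type genes passed the filter, and 3 of the 4 read lower on the DNP array than in control and in BER+DNP than in BER, beside 26.0% of all genes. Nfkbiz, a nuclear IkB gene, had 6.14 (control), 6.28 (BER), 5.85 (DNP) and 6.01 (BER+DNP), so both DNP arrays read below both others, by 0.29 and 0.27. Bcl3, another nuclear IkB gene, differed by -0.29 and -0.40 in these comparisons and Nfkbid by -0.29 and -0.01. Among further negative regulators, 11 of 12 passed, with a median of 0.00 in BER versus control and -0.14 in BER+DNP versus DNP. In the latter 9 of 11 were below 0, as were 9 of the 11 adaptor and ubiquitin ligase genes, beside 53.2% of all genes. In DNP versus control, which shares the DNP array, 9 of 11 negative regulators and 7 of 11 adaptor and ubiquitin ligase genes were above 0. Their medians there were 0.14 and 0.03, beside 0.02 for all genes. In BER+DNP versus control the medians of these 2 lists were -0.03 and -0.01. Otud7b, a deubiquitinase gene, differed by 0.52 and -0.14 with berberine, and its other probe sets past the filter by -0.34 and 0.07 in BER versus control. Pdlim2 differed by -0.11 and -0.47 with berberine and Tnip1, which encodes a partner of A20, by 0.15 and -0.14.

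NF-kB target genes gave medians of 0.02 and 0.03 in the BER comparisons and 0.01 and 0.01 in the DNP comparisons, with 29 of 40 past the filter. In both BER comparisons 9 of the 29 were above 0 and 6 below, beside 25.4% and 29.7% of all genes. Nos2, the inducible nitric oxide synthase, gave 5.54 (control), 5.18 (BER), 5.00 (DNP) and 5.37 (BER+DNP). Control was thus its highest array, and berberine differed by -0.35 without and 0.37 with the antibody. Lif, a cytokine gene, gave 4.25, 3.74, 4.07 and 3.80 in the same order, with both BER arrays below both others. A second Lif probe set, just past the filter, gave 3.08, 3.05, 3.40 and 3.12 and did not repeat this order. Cxcl1, a neutrophil chemokine gene, gave 6.29, 6.09, 5.78 and 5.91, with both DNP arrays below both others. Its second probe set past the filter gave 5.71, 5.91, 5.74 and 5.58 and did not repeat this order either. Among genes with a promoter window, a kappaB match was held by 10 of 31 target genes (32.3%), 3 of 8 other negative regulators (37.5%), 1 of 3 other IkB-type genes, 2 of 8 receptors, 2 of 14 adaptors and ubiquitin ligases and 1 of 10 kinases.

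**Figure D4:**
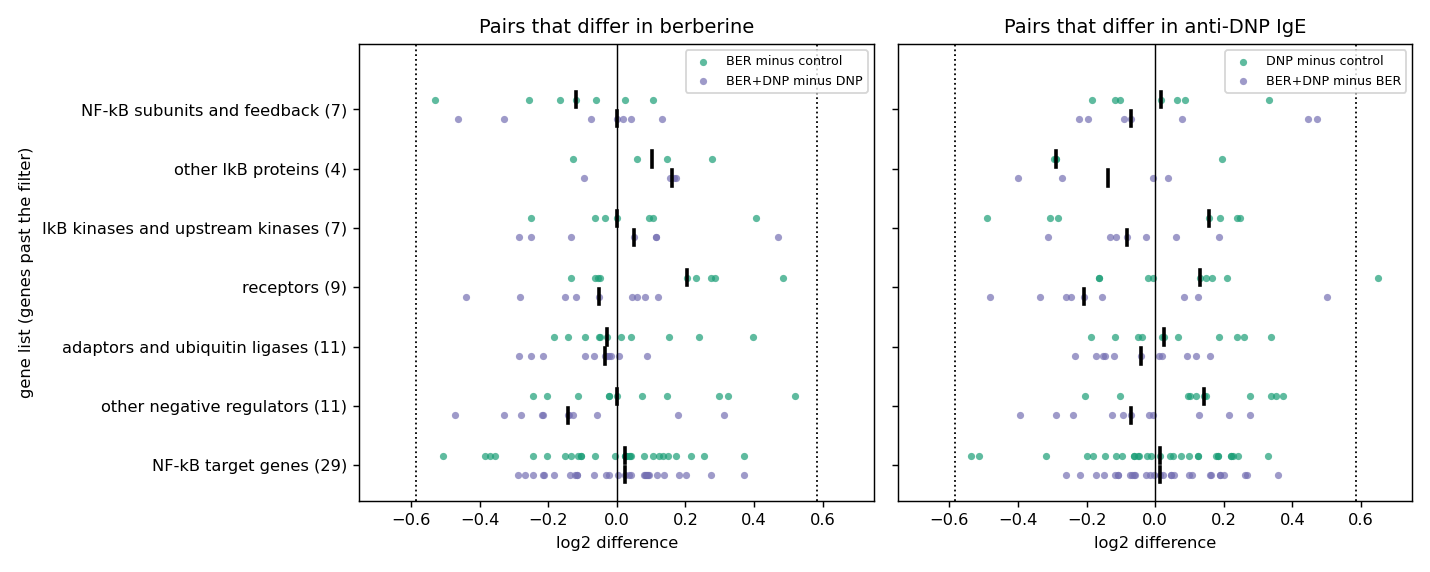
Log2 differences (x axis) of genes past the filter in 7 lists of the NF-kB pathway (y axis, number of genes in brackets), on the left for the 2 comparisons that differ in berberine and on the right for the 2 that differ in anti-DNP IgE. Each point is a gene, black bars are medians and dotted lines 1.5-fold; 1 point, Tnfrsf1b at 0.65 in DNP versus control, lies past a dotted line.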

How the data were processed

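The authors deposited 1 table of log2 signals, 45101 probe sets on 4 arrays of 1 array per group, made with Affymetrix Expression Console per the submitters' processing notes. Which version, summary algorithm and background correction were used, and any detection calls, were not given in the sources used here. The log2 scale was read from the values, 1.05 to 13.96, and the like medians were taken to mean that the arrays had been normalized, so values were used as deposited; a summary algorithm can shrink differences of dim probe sets. The 64 control probe sets were set apart. Symbols came from a platform annotation of 2016, in which 34945 probe sets had 1 symbol, 932 had several and 9160 had none; genes were named only from the first kind. A gene was read by its brightest probe set by mean over the arrays, and 12585 of 18193 genes reached 3.138, the median over all probe sets other than controls.

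Comparisons are differences of log2 signals between 2 arrays, called at 1.5-fold, with no test and no p-value. The gene set and all lists were chosen with earlier results of these data known. Named are all NF-kB genes and, from each list by role, up to 3 genes past the filter with the widest difference in the BER and DNP comparisons, with any gene past 1.5-fold in the same direction in both BER or both DNP comparisons; for likeness, the 3 genes nearest to the NF-kB gene of widest spread. Alternatives were the median of all probe sets, no filter, a filter at the 75th percentile, quantile normalization, leaving out probe sets with suffix x or s, and 32 added to the linear signals; a 1.2-fold threshold was added after the data were seen. Python 3.11.15 with pandas 2.3.3 and NumPy 2.4.6 was used.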

Additional observations from a re-analysis of the deposited data

Results flagged for a closer look

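Berberine gave differences of opposite sign without and with anti-DNP IgE in 2 of the 7 NF-kB genes past the filter (Relb and Tnfaip3), beside 42.3% of all genes. Anti-DNP IgE did so without and with berberine in 3 of 7 (Nfkbia, Tnfaip3 and Traf1), beside 42.1%. For either agent the count was 4 of 7, beside 59.7% of all genes, and the differences between the effects were not tested. For Relb, berberine differed by -0.26 without and 0.13 with anti-DNP IgE, a change of 0.39 between the effects. For Tnfaip3, berberine differed by -0.53 and 0.02, and anti-DNP IgE by -0.10 without and 0.45 with berberine, which is the same difference of 0.55 seen from both sides. For Nfkbia, anti-DNP IgE differed by 0.02 and -0.19, a difference of -0.21. With each gene read by the median signal of its probe sets on each array, the values of Nfkbia were -0.06 and 0.11, a difference of 0.17. That median was the signal of the probe set 1448306_at on every array. Of the other Nfkbia probe sets past the filter, 1420088_at gave a difference of -0.26 and 1420089_at one of 0.14. By the median of its probe sets, Tnfaip3 had the same sign both times for each agent. Its values were -0.34 and -0.09 for berberine and 0.02 and 0.27 for anti-DNP IgE. For Traf1, anti-DNP IgE differed by 0.33 and -0.07, a difference of -0.40.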

How the results depend on the processing

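The count of NF-kB genes past 1.5-fold was 0 in all 6 comparisons under each of the 6 alternative settings (other than the threshold). As deposited, 0 of the 18 probe sets reached 1.5-fold in any comparison of 2 arrays. Choosing other probe sets, moving the filter or adding 32 could therefore hardly raise the count, and these zeros say little. With the 1.2-fold threshold, added after the data were seen, it was 1 in BER versus control, 2 in BER+DNP versus DNP, 1 in DNP versus control, 2 in BER+DNP versus BER, 1 in BER+DNP versus control and 3 in the difference of BER differences. The median over the NF-kB genes kept its sign in BER versus control (-0.12 to -0.05 over the alternatives) and BER+DNP versus control (-0.10 to -0.04), and lay between 0.00 and 0.04 in BER+DNP versus DNP. It turned in the other comparisons. In DNP versus control it was 0.02, but -0.043 under the stricter filter (75th percentile) and -0.054 after quantile normalization. In BER+DNP versus BER it was -0.07, but 0.079 when all probe sets entered by their median, and 0.079 without suffixes x and s. In the difference of BER differences it was 0.02, but -0.044 under the stricter filter. The cause was not tested. Single genes moved by more than 1 SD of all genes' differences in 17 of 216 values. Some of the 216 could not move. Rela, Relb and Rel have 1 probe set each, and most brightest probe sets carry no suffix x or s. With 32 added to the signals, Tnfaip3 differed by -0.24 in BER versus control and Traf1 by -0.14 in BER+DNP versus DNP. With each gene read by the median of its probe sets, Traf1 differed by -0.23 there. Nfkbia then differed by -0.38 in BER versus control, and its difference in BER+DNP versus BER turned from -0.19 to 0.11. The Nfkbia values -0.38 and 0.11 are those of the probe set 1448306_at, whose signal was the median on every array. Without suffixes x and s, Nfkbia differed by -0.04 in BER+DNP versus control. No paired analysis was possible because each group holds 1 array. Without replicates and detection calls, differences of this size cannot be told from the noise of an array, and small ones do not show that a gene was unaffected.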

Other observations

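Some NF-kB target genes read below the filter differed by more than those past it in single comparisons; in BER+DNP versus DNP the widest was Nos2 at 0.37, which is past the filter. Cd83, a maturation marker gene of antigen-presenting cells, gave 2.49 (control), 1.78 (BER), 2.64 (DNP) and 2.55 (BER+DNP) on the log2 scale, so BER was the only low array, as for Tnfaip3. Cd44, an adhesion receptor gene, gave 3.09, 3.33, 2.74 and 2.67 in the same order on its brightest probe set. Both DNP arrays lay below both others there, as in 16.4% of all genes past the filter. A dimmer Cd44 probe set repeated this, with 2.14, 2.07, 1.98 and 1.89. Another gave 2.72, 2.55, 2.57 and 2.52 and did not, nor did a further probe set with 2.02, 2.24, 2.14 and 2.17. Cd83 and Cd44 were chosen after their values were seen.

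Identical signals on 2 arrays, as for Nfkb2 in DNP and BER+DNP, were found in 181 of 12585 genes (1.44%) in that comparison.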
